A study of Mus musculus with 11 samples.

Results

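The cells described here are B cells of the aged mouse lung that carried RNA of the transcription factor genes Zbtb32, Bhlhe41 and Sox5. They were selected on measured values. A barcode of 1000 to 30000 UMIs (unique molecular identifiers, each counting 1 captured RNA molecule) and at most 14% mitochondrial UMIs was taken when it held 2 or more UMIs of Cd79a and Cd79b together and 2 or more of the 3 factors together. It could hold at most 2 UMIs of Derl3 and Tnfrsf17 together and none of Cd3e. The selection found 850 cells, called members below, among 16187 B cells of the same gate and 69266 filtered cells in all. The 14504 B cells without any UMI of the 3 factors are called other B cells, and 833 B cells with exactly 1 such UMI lie between the classes. The latter count as B cells in shares and are in neither class of the main gene test.

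Whole lungs were dissociated and profiled by droplet-based 3′ RNA sequencing in 11 libraries. The study asks what follows when mTert, the mouse telomerase reverse transcriptase gene, is induced in cells that express p21, the product of Cdkn1a. WT is wild type (+/+) with 1 library. p21Het are p21 heterozygotes (+/-) with 3 libraries, p21mTert carry the genotype +/mTert with 5 libraries, and p21mTertCD carry +/mTertCD with 2 libraries. The letters CD are not spelled out in the labels. The animals were 18 months old, except 1 p21Het library labelled 19 months and 1 p21mTert library labelled 20 months. WT_1, p21Het_1 and p21mTert_1 form the first deposit, and the other 8 libraries were added later. No treatment is named, and nothing in the labels says that the libraries of a group come from separate animals, so the p-values below measure the spread between libraries.

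B cells leave the bone marrow as naive cells that carry IgM and IgD, and recirculating follicular cells of this kind display the low-affinity IgE receptor CD23 (Fcer2a). Memory, B-1 and age-associated or atypical B cells are antigen-experienced or innate-like populations that persist for long periods. Bhlhe41 is known for its part in the maintenance of B-1a cells, Zbtb32 restrains secondary responses of memory B cells, and Sox5 is known from atypical and memory-like human B cells.

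Zbtb32 (chromosome 7, 30589681 to 30598909, minus strand, GRCm38), Bhlhe41 (chromosome 6, 145858243 to 145865558, minus strand) and Sox5 (chromosome 6, 143828425 to 144781977, minus strand) contributed unequally to the selection. These positions are from GENCODE M21, and what follows on the 3 genes describes the selection and was not tested. Bhlhe41 was found in 668 members (78.6%) with 1746 UMIs in all, Zbtb32 in 417 (49.1%) with 994 UMIs and Sox5 in 385 (45.3%) with 699 UMIs. A cell held at most 17 UMIs of Bhlhe41, 16 of Zbtb32 and 9 of Sox5. The most frequent pattern was Bhlhe41 alone, in 247 members. Zbtb32 with Bhlhe41 was found in 159, Bhlhe41 with Sox5 in 133, all 3 factors in 129, and Zbtb32 with Sox5 in 70. Zbtb32 alone selected 59 members and Sox5 alone 53. Most members thus carried Bhlhe41, with or without a second factor. Whether its UMIs came from the B cell or from other RNA in the same barcode was not tested.

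Levels were computed per library as UMIs of a gene per 1000000 UMIs of the members (CPM). Over the 11 libraries Zbtb32 was at 104 ± 26.9 CPM (mean ± SD) and Sox5 at 76.5 ± 18.7, and Bhlhe41 at 183 ± 33.0. The lowest library stood at 51.7, 123 and 43.7 CPM for Zbtb32, Bhlhe41 and Sox5, and the highest at 145, 230 and 107. Each factor was therefore present in the members of every library. Just inside the threshold, 316 members held exactly 2 factor UMIs, with a median of 7663.5 UMIs per cell, and Fcrl5 was found in 32.0% and Mzb1 in 84.5% of them. Just outside it, the 833 cells with 1 factor UMI had a median depth of 6344 UMIs. The other 534 members held 3 or more factor UMIs.

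Fcrl5 and Mzb1 were named together with these cells and are given as a description. Fcrl5, an inhibitory Fc receptor-like protein of B-1, marginal zone and atypical memory B cells, ranged from 37.6 to 132 CPM in members with a median of 55.6, against a mean of 9.13 ± 7.35 in other B cells. Mzb1, an endoplasmic reticulum protein that assists immunoglobulin assembly, ranged from 354 to 808 CPM with a median of 661, against 239 ± 42.5. For both genes, members lay above the other B cells of the same library in 11 of 11 libraries. Fcrl5 was detected in 312 members and Mzb1 in 755, and 299 held both. Mzb1 stood far below the level of the cells with more than 2 UMIs of Derl3 and Tnfrsf17, at 2703 CPM.

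A selection that asks for UMIs favours deeply sequenced barcodes. Members had a median of 9415.5 UMIs per cell, other B cells 4079 and T cells 6255. When each cell was thinned at random to 1000 UMIs, only 42 cells still met the rule. The part of depth in the results below was not tested, apart from the thinned values given beside them. Among T cells (Cd3e 1 or more, Cd79a and Cd79b 0), 0.242% to 2.38% per library held 2 or more factor UMIs, with a median of 1.18%. Members accounted for 2.57% to 15.2% of B cells per library. Of the 16 genes listed as markers of other lineages, 8 were tested. In 244 members (28.7%) these genes summed to 3 or more UMIs, from 12.9% to 60.9% of the members of a library. The 2 highest were p21Het_2, with 85 of its 144 members, and p21mTertCD_1, with 14 of its 23. Among other B cells the share was 15.1% in all, 59.0% in p21Het_2 and 66.1% in p21mTertCD_1. In these 2 libraries it was thus not particular to members, at 59.0% and 60.9%. Chil3, a secreted protein of alveolar macrophages, reached 2475 ± 2055 CPM in members against 209 ± 191 in other B cells, and Ear2 and Mrc1 of the same cells were also higher. Main results are therefore repeated on a stricter gate, chosen after the data were seen, that requires a UMI of a pan-B gene outside the rule and fewer than 3 UMIs of other lineages. It keeps 598 members, and there Chil3 stood at 37.3 CPM in members and 69.1 in other B cells. Chil3 is among the genes that this gate limits in each cell, at median depths of 8714.5 and 3976 UMIs. These 2 levels therefore give no direction for Chil3.

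Total counts were 42038434 to 85988955 UMIs per library and members numbered 23 to 144. B cells made up 2.30% of cells in p21mTertCD_1 and 40.7% in WT_1. Of the barcode sequences, 617 occurred in more than 1 library, 13 members shared theirs with a cell elsewhere, and 0 sequences were shared between members. A doublet score marked 58 of the 850 members and 536 of the 14504 other B cells. Cdkn1a, the p21 gene, was detected in all groups, while Tert reached only 9 UMIs in all members together, so that the mTert allele could not be checked in these cells.

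The share of members among B cells did not separate the genotypes. It was 4.19% in WT_1 (exact 95% confidence interval 3.39% to 5.10%, counting error only). The 3 p21Het libraries stood at 2.57%, 11.5% and 6.67%. The 5 p21mTert libraries stood at 3.17%, 5.45%, 6.11%, 5.43% and 5.00%, and the 2 p21mTertCD libraries at 15.2% and 5.90%. The p21Het values enclosed all p21mTert values, and p21mTertCD_2 lay inside the range of the p21mTert libraries, while p21mTertCD_1, with 151 B cells, gave the highest share of all. Means were 6.93% ± 4.49 in p21Het (SD, n = 3), 5.03% ± 1.11 in p21mTert (n = 5) and 10.6% ± 6.60 in p21mTertCD (n = 2).

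p21mTert minus p21Het was -1.90 percentage points (2-sided exact permutation test p = 0.411, adjusted over 3 contrasts 0.5, smallest possible 0.0179). It turned to 0.411 without p21Het_2 and to -4.08 without p21Het_1 (exact permutation p = 0.0476). p21mTert minus p21mTertCD was -5.53 points (exact permutation p = 0.0952, adjusted 0.286, smallest possible 0.0476) and was -0.862 without p21mTertCD_1. p21mTertCD minus p21Het was 3.63 points (exact permutation p = 0.5, adjusted 0.5, smallest possible 0.1, so that this contrast cannot reach 0.05) and turned to -1.04 without p21mTertCD_1. Within the later deposit the 3 differences were -3.61, -5.07 and 1.45 points, with exact permutation p of 0.0667, 0.133 and 1. With 4 p21mTert, 2 p21Het and 2 p21mTertCD libraries none of them can reach 0.05, and 0.0667 is the smallest p possible for the first 2. On the stricter gate the differences were -2.69, -8.21 and 5.52 points (exact permutation p = 0.357, 0.190 and 0.6). There p21mTertCD_1 stood at 20.5%, on 9 members among 44 B cells, and p21mTertCD_2 at 5.50%. The first deposit holds 1 library each of WT, p21Het and p21mTert and none of p21mTertCD, so that it gives no test. As a share of all cells, members made up 0.351% in p21mTertCD_1 to 1.70% in WT_1. p21mTertCD_1 was thus highest in one denominator and lowest in the other, since few of its cells were B cells.

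**Figure D1:**
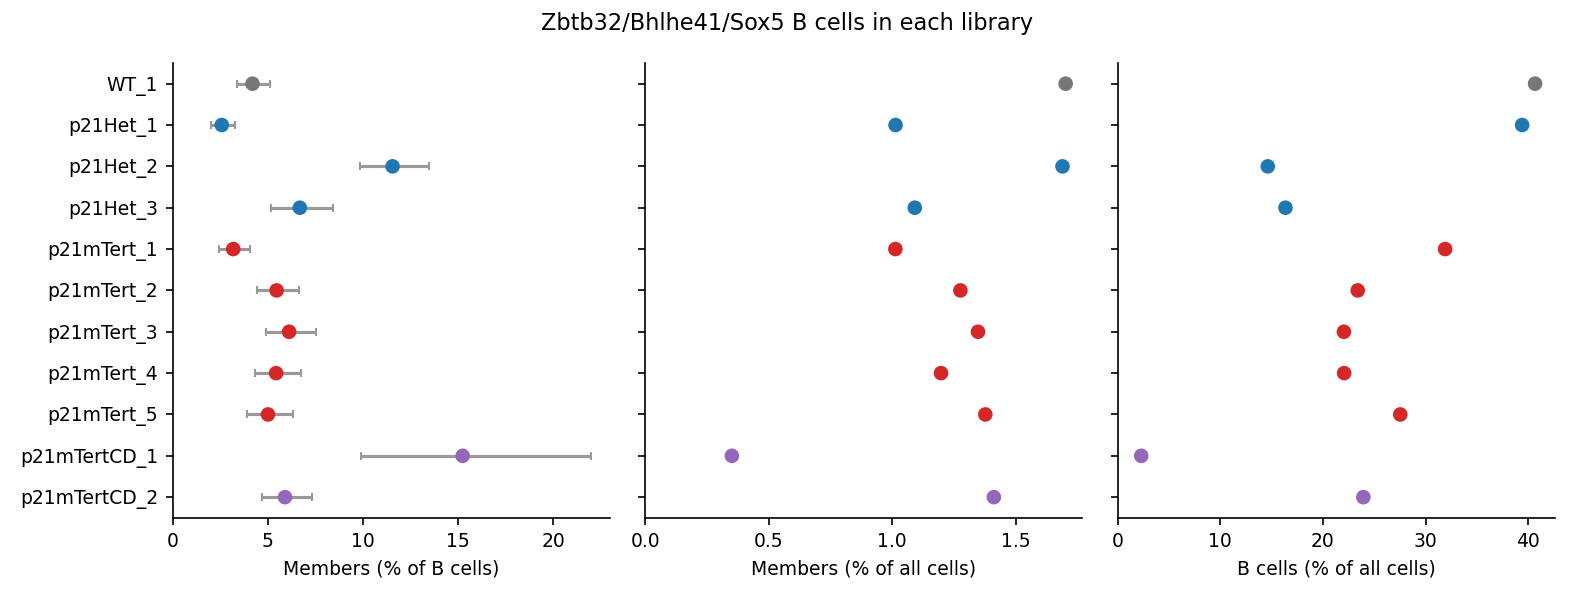
Points show, for each library, members as a share of B cells with exact 95% intervals, members as a share of all cells, and B cells as a share of all cells (all in %), coloured by genotype. In p21mTertCD_1 members make up the highest share of B cells of any library (15.2%) and the lowest share of all cells (0.351%), and B cells make up the lowest share of all cells (2.30%).

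Members differed from other B cells of the same libraries in many genes that the selection did not use. The test compared UMIs summed per library over members and over other B cells, with the library as a block (edgeR quasi-likelihood test, Benjamini-Hochberg adjustment over 8342 genes). At an adjusted p under 0.05, 1664 genes were higher in members (19.9% of those tested) and 1645 were lower (19.7%). On the stricter gate, which left p21mTertCD_1 out for having fewer than 20 members, 1655 of 7592 genes were higher (21.8%) and 1583 lower (20.9%). Of the higher genes, 1260 were called on both gates (75.7% of the first list and 76.1% of the second), and of the lower genes 1203 (73.1% and 76.0%). Calls in opposite directions numbered 4 and 7.

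The 15 higher genes named by size of change kept their call on the stricter gate. They were led by Ahnak2, a large scaffold protein (chromosome 12, 112772194 to 112802657, minus strand). Ahnak2 ranged from 31.9 to 72.9 CPM in members with a median of 50.2, and from 0.603 to 3.80 in other B cells with a median of 1.48. Its values did not overlap, and the log2 fold change was 5.13 ± 0.25 (SE; edgeR adjusted p = 7.8e-10). Lipc, hepatic lipase, followed with a log2 fold change of 4.02, at means of 25.2 against 1.48 CPM. Gpr55, a lysophospholipid receptor, stood at 3.60 on the same scale.

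Cd80, Nt5e, Adora2a and Ctla4 were also among the 15 genes. Cd80, the costimulatory ligand of CD28 and CTLA-4 (chromosome 16, 38455561 to 38496335, plus strand), ranged from 36.4 to 108 CPM in members with a median of 51.5, and from 3.80 to 11.5 CPM in other B cells with a median of 6.34. The lowest member library lay above the highest library of other B cells, and the log2 fold change was 3.13 ± 0.16 (edgeR adjusted p = 1.8e-09; 3.84 on the stricter gate). Nt5e, the ectoenzyme CD73 that makes adenosine from AMP, ranged from 18.2 to 73.1 CPM in members with a median of 45.5, and from 1.44 to 8.45 in other B cells with a median of 4.45. Its log2 fold change was 3.27 ± 0.16 (edgeR adjusted p = 1.0e-09), again without overlap. Adora2a, an adenosine receptor, stood at 37.3 against 4.82 CPM (log2 fold change 2.93). Ctla4, an inhibitory receptor best known from T cells, ranged from 18.2 to 109 CPM in members with a median of 58.1, and from 0.639 to 23.8 with a median of 3.45 in other B cells. These ranges overlapped between libraries, but members were higher in 11 of 11 libraries (log2 fold change 3.73 ± 0.33, edgeR adjusted p = 4.2e-07). Cd3e was 0 in every member by the rule, and the T cell genes Cd3d, Trac and Trbc2 stood at 1.92, 1.74 and 2.85 CPM in members and at 2.87, 2.22 and 4.42 in other B cells. Cd3g went the other way, at 7.15 CPM in members and 2.18 in other B cells, and at 2.24 and 1.12 on the stricter gate.

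Single members carried these transcripts in part. Cd80 was found in 306 members, Nt5e in 239 and Ctla4 in 192. Cd80 and Nt5e were found together in 92, Cd80 and Ctla4 in 93, and Nt5e and Ctla4 in 60. A UMI was found for Cd80 in 36.0% of members, 2.23% of other B cells and 3.38% of T cells, at the median depths given above. After thinning to 1000 UMIs the shares were 5.88%, 0.379% and 0.529%. The difference in Cd80 between members and other B cells was thus also seen at equal depth.

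**Figure D2:**
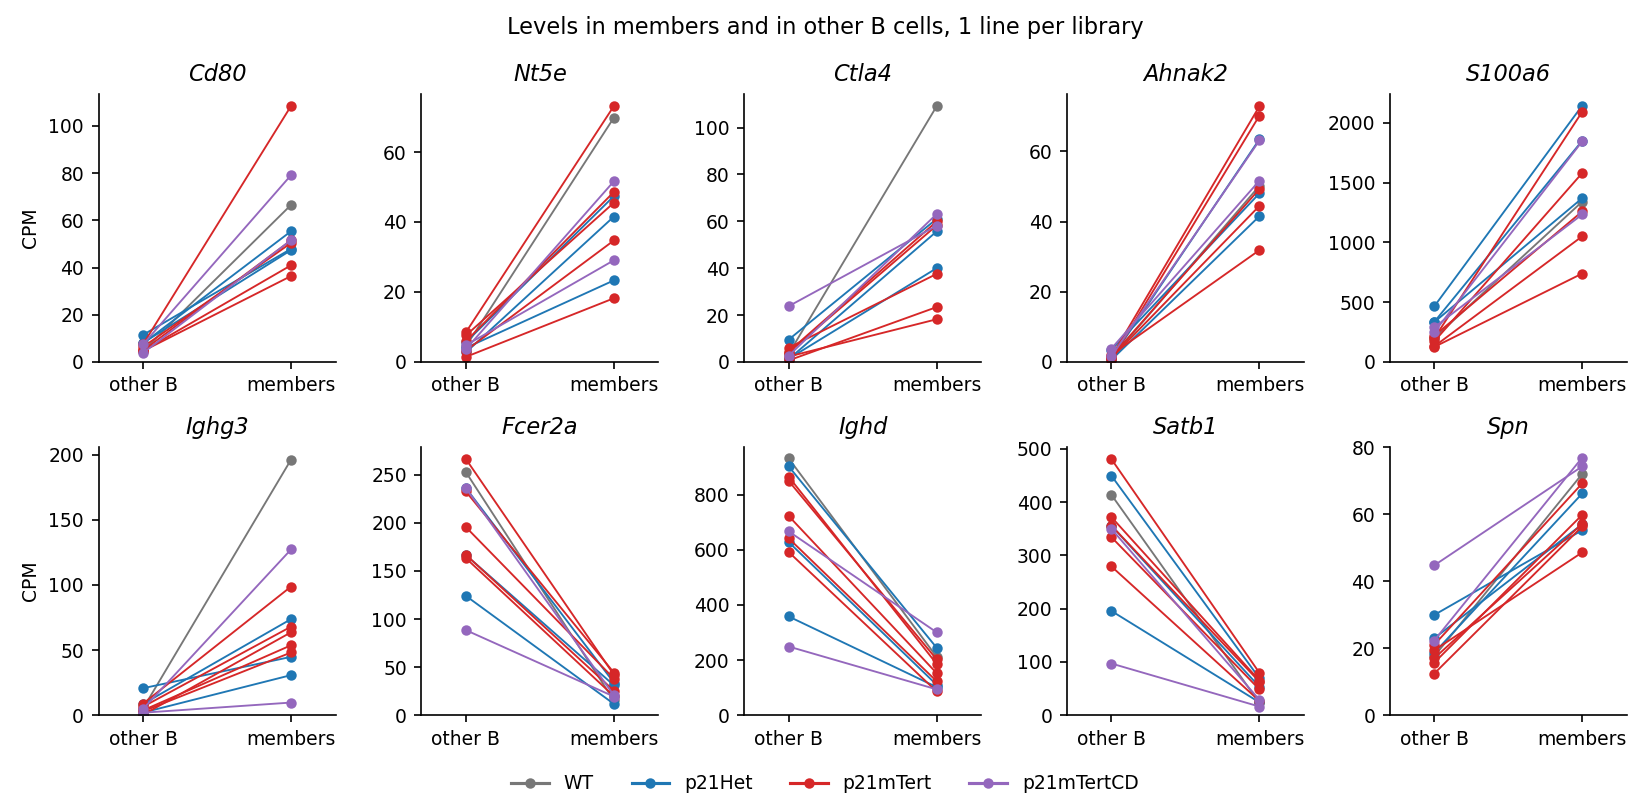
Each line joins the level (CPM) in other B cells and in members of 1 library for 10 genes, coloured by genotype. Cd80 rises from at most 11.5 CPM to at least 36.4 CPM, while Fcer2a falls from at least 88.4 CPM to at most 44.2 CPM.

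The remaining higher genes were Prkar2b (a regulatory subunit of protein kinase A), Nrp2 (neuropilin 2), Cd300lf, Diras2, Ass1 (argininosuccinate synthase), Plscr1 (phospholipid scramblase 1), Nid1 (nidogen 1) and Ighg3. Their log2 fold changes lay between 2.67 for Nid1 and 3.78 for Ighg3. The next 4 genes were picked after their values were seen, and each had a larger log2 fold change on the stricter gate than on the main gate. S100a6, a calcium-binding protein, stood at 1676 CPM in members and 143 in other B cells there (log2 fold change 3.63, and 2.65 on the main gate), and Lgals1, galectin 1, at 370 against 33.8 (3.51 and 2.65). Itgb1, the integrin beta 1 chain, stood at 225 against 28.0 CPM (3.08 and 1.81). Vim, vimentin, stood at 1603 against 577 CPM (1.52 and 1.42).

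The 15 lower genes named by size of change on the main gate were Sftpc, Sftpd, Itih4, Slc34a2, Cxcl15, Lrp2, Lcn2, Acoxl, Slco4c1, Chil1, S100g, Egfl6, Hc, Il33 and Muc1. Sftpc, the surfactant protein C gene of alveolar type 2 cells, ranged from 9744 to 43947 CPM in other B cells with a median of 15270, and from 173 to 9806 in members with a median of 298. The log2 fold change of -4.95 (edgeR adjusted p = 1.1e-05) was -0.87 on the stricter gate, at 317 CPM in members and 592 in other B cells. Most of the Sftpc level in other B cells was thus lost with the barcodes that the stricter gate leaves out. With that gate 6 of the 15 could be tested, and each was smaller in size there. The gate limits UMIs of the epithelial genes Sftpb and Epcam in each cell, at median depths of 8714.5 UMIs in members and 3976 in other B cells. It therefore cannot decide the size of these differences.

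Other genes, picked after their values were seen, were lower on both gates. Satb1, a chromatin organizer (chromosome 17, 51736187 to 51833290, minus strand), ranged from 16.1 to 79.4 CPM in members with a median of 48.2, and from 97.0 to 481 in other B cells with a median of 356. Members were lower in every library without overlap (log2 fold change -2.95 ± 0.13, edgeR adjusted p = 6.3e-10; -3.29 on the stricter gate). Neurl3, Vpreb3, Zfp318, Stat4 and Icosl were lower as well, with log2 fold changes of -2.51, -1.85, -1.95, -1.80 and -2.03. Zfp318 is known as a regulator of IgD expression, and Icosl is the ligand of the T cell receptor ICOS.

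The marker lists show how the members relate to named B cell classes. Over all tested genes the median log2 fold change was -0.01, with 19.9% higher and 19.7% lower on the main gate. Of the pan-B list, 1 of 10 genes was higher and 5 lower, with a median of -0.19. Ms4a1, which encodes CD20, was higher (0.48), and Ebf1 (-1.14), Pax5 (-0.57), Cd74, Ly6d and H2-Aa were lower. Ly6d and H2-Aa did not pass without marked doublets (edgeR adjusted p = 0.105 and 0.067). Ly6d also did not pass after thinning (0.060) or in the later deposit (0.146). Cd37 stood at 654 ± 103 CPM in members and 623 ± 167 in other B cells. The B cell identity of the members was thus visible in genes that the rule did not use, with the factors Ebf1 and Pax5 lower than in other B cells.

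Genes of follicular naive cells were lower in members for 10 of 11, with a median of -1.19 and the same count on the stricter gate. Fcer2a (chromosome 8, 3681737 to 3694175, minus strand) ranged from 11.7 to 44.2 CPM in members with a median of 25.5, and from 88.4 to 266 in other B cells with a median of 196. The ranges did not overlap (log2 fold change -2.87 ± 0.14, edgeR adjusted p = 7.3e-10). Ighd, the IgD heavy chain, differed by -2.07, at 165 ± 70.0 against 674 ± 219 CPM. Bach2 (-1.40), Cd55 (-1.36) and Fcrl1 (-1.19) were lower too. The exception was Klf2, which controls lymphocyte traffic and stood at 0.09 (edgeR adjusted p = 0.307), or 0.19 on the stricter gate (adjusted p = 0.0092).

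Of the age-associated or atypical list, the 7 genes that could be tested of 10 were higher, with a median of 1.02. On the stricter gate the count was 6 of 6 with a median of 1.53. Cd80 led the list, Fas (the death receptor CD95) stood at 1.83, Zeb2 at 1.02, Tlr7 at 0.67 and Cd86 at 0.30. Cd86 did not pass without the filter on low counts or after thinning (edgeR adjusted p = 0.167 and 0.090). Itgam, also among the 7, did not pass without that filter (0.074) or in the later deposit (0.102). Itgax (CD11c) had a log2 fold change of 2.12, but alveolar macrophages carry it too. On the stricter gate Itgax stood at 6.16 CPM in members and 2.48 in other B cells, higher in 8 and lower in 2 of 10 libraries, and was too low to test. Itgam was too low to test there as well, at 25.7 and 3.76 CPM, higher in 10 of 10 libraries. Tbx21, which encodes T-bet, stood at 11.8 ± 7.11 CPM in members and 4.11 ± 1.50 in other B cells and was too low to test on the main gate. On the stricter gate it could be tested and was higher in 10 of 10 libraries, at 14.99 against 5.20 CPM (log2 fold change 1.59 ± 0.27, edgeR adjusted p = 2.2e-05). Cxcr3 and Tlr9 were too low to test on either gate. Tbx21 and Itgax are the defining pair of age-associated B cells. The cells are named here by the 3 factors.

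The B-1 list was higher in 6 of the 6 genes that could be tested of 8, with a median of 1.75 and 2.56 on the stricter gate. Besides Ctla4 (3.73) and Plscr1 (2.71) these were Cd9 (1.89), Spn (1.61), Il5ra (1.40) and Ptpn22 (1.30). Spn, the CD43 protein, ranged from 48.6 to 76.9 CPM in members with a median of 59.8, and from 12.4 to 44.7 in other B cells with a median of 19.4, without overlap. Il5ra, the interleukin 5 receptor of B-1 cells, ranged from 17.3 to 58.3 CPM with a median of 40.3, against 5.71 to 18.0 with a median of 14.9. Only the ends of these ranges overlapped, and members were higher in 11 of 11 libraries. Cd5, which separates B-1a from B-1b cells, was too low to test, at 2.34 ± 2.54 CPM in members and 0.751 ± 0.579 in other B cells. Il10 was too low to test as well, at 12.2 ± 5.60 against 1.96 ± 2.38 CPM.

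Memory genes were split, with 5 of 8 higher and 3 lower (median 0.77). Nt5e, Cd80, Cd44 (1.36), Pdcd1lg2 (0.84) and Cd38 (0.69) were higher, and Cd27 (-0.65), Ccr6 (-0.90) and Hhex (-0.82) were lower. Of the marginal zone list, 5 of 7 could be tested, 1 was higher and 2 were lower (median 0.00). Over all tested genes 19.9% were higher and 19.7% lower. Plac8 was higher (1.40), while Cr2, the complement receptor CD21, was lower at -2.10 and Notch2 at -0.62. Plac8 was thus the 1 tested marginal zone gene that was higher in members.

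**Figure D3:**
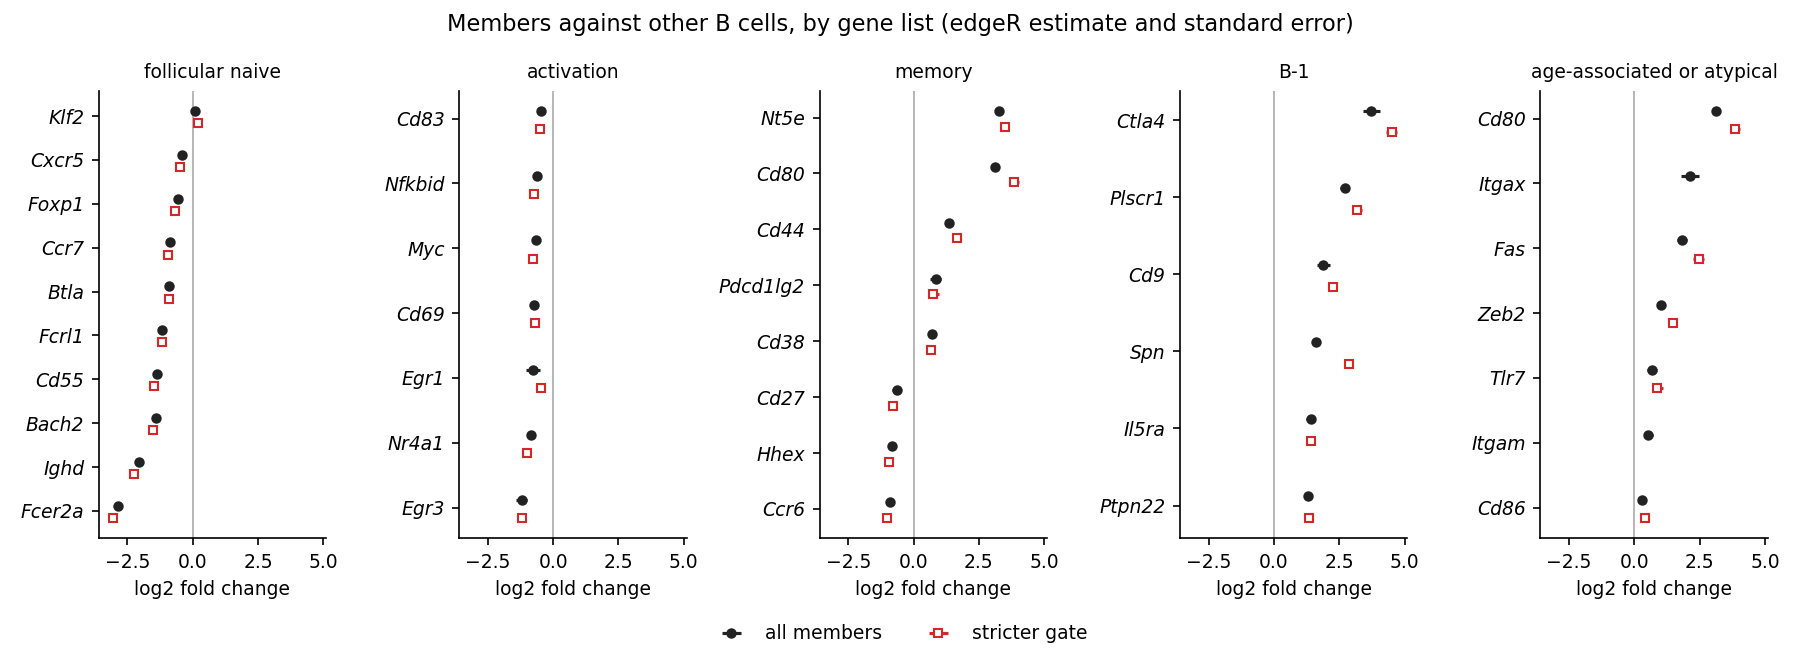
Points give the edgeR log2 fold change of members against other B cells with its standard error, for genes of 5 marker lists, on the main gate (filled) and the stricter gate (open). Genes of the follicular naive list lie below 0 apart from Klf2, and the tested B-1 genes lie above 0.

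Genes of the plasma cell programme were higher in 6 of 10 and lower in 1, with a median of 0.46. Prdm1, which encodes Blimp-1, differed by 1.91, at 27.8 ± 13.5 against 8.20 ± 5.73 CPM. On the stricter gate it was too low to test, at 23.3 CPM in members and 2.78 in other B cells, higher in 10 of 10 libraries. The secretory genes Edem1 (0.99), Creld2 (0.84), Txndc5 (0.59) and Xbp1 (0.37) and the factor Irf4 (0.34) were higher in the main test, and Sdc1, also an epithelial gene, was lower (-1.41). With the stricter gate 7 of the 8 genes that could be tested were higher and 0 lower (median 0.62), and Sdc1 was too low to test, at 5.31 CPM in members and 5.77 in other B cells. Cells with more than 2 UMIs of Derl3 and Tnfrsf17, 437 in all, had been left out by the rule. Without the filter on low counts Xbp1 and Irf4 did not pass (edgeR adjusted p = 0.079 and 0.088), and Xbp1 did not pass without marked doublets (0.179) or in the later deposit (0.063). Activation genes were lower in 7 of 7, with a median of -0.73. Of these, Egr1 did not pass after thinning or in the later deposit alone (edgeR adjusted p = 0.121 and 0.135). Nr4a1 and Egr3, which respond early to receptor signals, stood at -0.84 and -1.21, and Cd69 at -0.73. Of 10 genes of B cell receptor signalling, Fcgr2b, the inhibitory IgG receptor, was higher (0.77) and Btk was lower (-0.26), with a median of 0.15. Btk did not pass the test after thinning, in the later deposit alone or without any 1 of 6 libraries (edgeR adjusted p from 0.051 to 0.251).

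Transcripts of dividing cells were found in some members. Of the germinal centre list, 3 of 9 genes could be tested, and the proliferation genes Mki67 (2.01) and Top2a (1.58) were higher while Bcl6, the germinal centre factor, was lower (-1.34). Both proliferation genes were higher in 8 of 11 libraries, and Top2a did not pass in the later deposit alone (1.21, edgeR adjusted p = 0.112). On the stricter gate Mki67 was higher in 6 and lower in 4 of 10 libraries, at means of 27.6 against 10.4 CPM. Top2a was higher in 9 and lower in 1 there, at 43.4 against 15.8 CPM. Mki67 and Top2a summed to 2 or more UMIs in 66 members, or 7.76% (exact 95% interval 6.06% to 9.77%), and in 114 other B cells, or 0.786%. After thinning, at least 1 UMI of these genes was found in 3.53% of members and 0.841% of other B cells. These shares are a description over cells. Aurkb, a mitotic kinase of the same list, was found in 3.76% of members and 0.972% of other B cells, and after thinning to 1000 UMIs a UMI of it was left in 0 of 850 members (exact 95% upper bound 0.433%) and 0.193% of other B cells. Of the other-lineage list, 8 of 16 genes could be tested. 3 were higher (Chil3, Ear2 and Mrc1) and Sftpb was lower, with a median of -0.32. With the stricter gate 2 could be tested and both were lower. That gate itself limits the UMIs of this list in each cell, at unlike median depths of 8714.5 UMIs in members and 3976 in other B cells. The test therefore cannot decide the direction of these genes.

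IgG was the leading heavy chain in a larger share of members than of other B cells. A cell was assigned to the class with most constant-region UMIs, at least 2. IgG led in 94 members, IgA in 24, IgM or IgD in 715 and IgE in 0, which allows a share of up to 0.353% for IgE (3 counts of the total, counting error only). In WT_1 6.45% of members were led by IgG. In p21Het the shares were 0%, 18.8% and 9.38%, in p21mTert 17.5%, 8.33%, 17.6%, 6.67% and 7.69%, and in p21mTertCD 4.35% and 12.7%. The mean was 9.94% ± 6.02 against 1.44% ± 2.29 in other B cells, with members higher in 10 of 11 libraries. The difference of 8.50 points (exact sign-flip permutation p = 0.0020 over n = 11, adjusted 0.0059) was 9.03 in the later deposit alone and 3.57 at equal depth, after thinning (exact p = 0.0039). IgG led 1.74% of T cells on average, taken here as a background of free RNA, and 12.9% of those in p21Het_2. The parts of free RNA and of doublets in this background were not tested. Without p21Het_2 the difference was 8.26 points.

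IgM or IgD led 85.6% ± 6.77 of members and 93.9% ± 6.00 of other B cells, lower in 10 of 11 libraries. This difference of -8.31 points (exact sign-flip permutation p = 0.0195, adjusted 0.0293) fell to -3.21 (p = 0.192, exact) at equal depth and was -7.31 (exact p = 0.0938) in the later deposit. T cells were led by IgM or IgD in 18.7% on average. IgA led 2.56% of members and 0.569% of other B cells, a difference of 1.99 points (exact sign-flip permutation p = 0.0313, adjusted 0.0313) that was higher in 7 libraries and lower in 3, and 1.02 at equal depth (exact p = 0.0313). Leaving out any 1 of p21Het_1 and p21mTert_1 to p21mTert_4 ended this call (exact permutation p = 0.0625 each). On the stricter gate the 3 differences were 10.6 points for IgG, -12.6 for IgM or IgD and 2.28 for IgA, with p21mTertCD_1 kept on 9 members. In the 833 B cells with 1 factor UMI, IgM or IgD led 86.2% on average, IgA 2.49% and IgG 5.97%. The IgM or IgD and IgA shares of members were thus not particular to them, and IgG lay between members and other B cells.

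**Figure D4:**
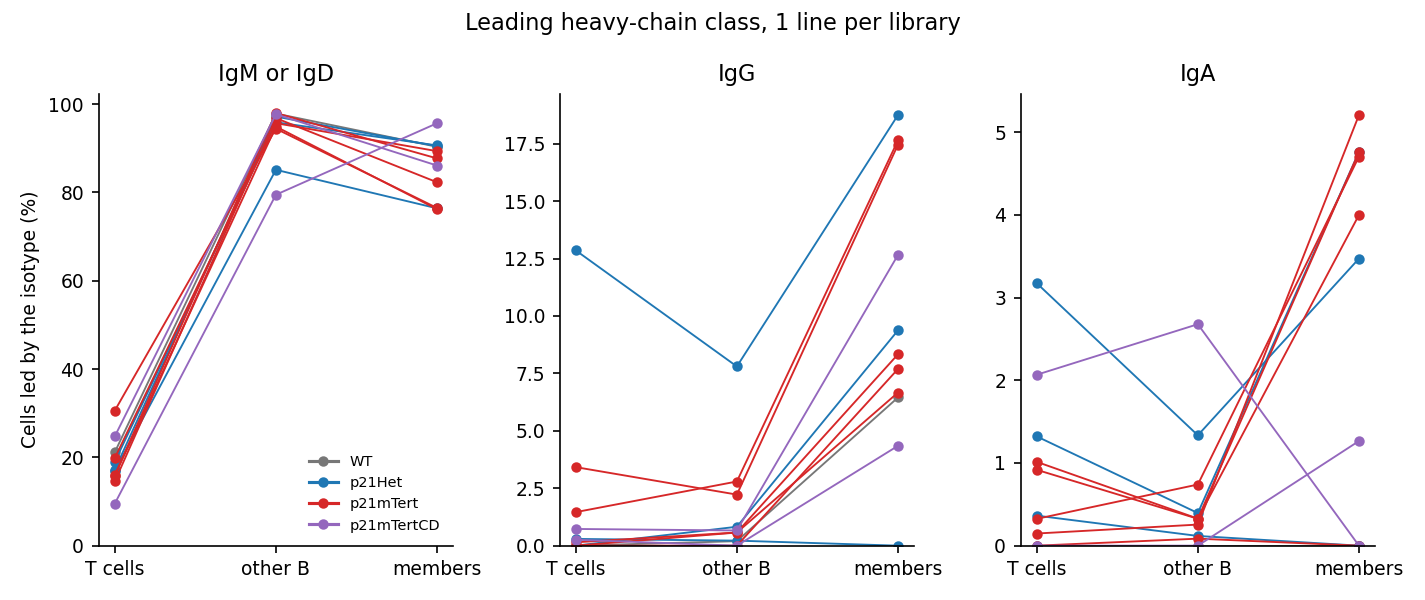
Each line joins the share of cells led by a heavy-chain class (%) in T cells, other B cells and members of 1 library. IgG lies higher in members than in other B cells in 10 of 11 libraries, and p21Het_2 reaches 12.9% in T cells.

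At the level of genes, Ighg3 carried the clearest difference, with 9.68 to 196 CPM in members (median 63.7) against 0.319 to 20.7 in other B cells (median 4.80). It was higher in 11 of 11 libraries (log2 fold change 3.78 ± 0.37, edgeR adjusted p = 1.5e-06). In p21mTertCD_1 its level rested on 3 UMIs in 1 of 23 members, and in WT_1 98 of 180 UMIs came from 1 cell. Ighg1, Ighg2b, Ighg2c and Igha did not pass the test on the main gate, with edgeR adjusted p of 0.213, 0.218, 0.336 and 0.376. Ighg2c passed with DESeq2 (log2 fold change 2.38, adjusted p = 0.0050) and without p21mTert_1 (2.02, edgeR adjusted p = 0.0493), but turned to -0.18 with 3 or more factor UMIs and to -1.32 without cells of other lineages. With the stricter gate it stood at 0.51 (edgeR adjusted p = 0.615), at means of 39.2 CPM in members and 182 in other B cells. Ighg1, Ighg2b and Igha passed on the stricter gate (adjusted p = 4.4e-05, 0.0021 and 1.3e-09). Single cells weighed on these genes: of 16721 Ighg2c UMIs in the members of p21Het_2, 30.8% came from 1 cell. The same held for 95.8% of the Ighg2b UMIs in WT_1 and 97.4% of the Igha UMIs in p21Het_1. Ighm, the IgM heavy chain, had a log2 fold change of 0.65 (adjusted p = 0.080), and 0.94 on the stricter gate (adjusted p = 8.0e-08).

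Members led by IgG and by IgM or IgD are set side by side as a description. The shares pool cells of 11 libraries, at median depths of 8769 and 9412 UMIs, and carry no test. Zbtb32 was found in 31.9% of IgG-led and 51.9% of IgM- or IgD-led members, Sox5 in 27.7% and 49.5%, and Bhlhe41 in 86.2% and 76.6%. The rule chose these cells by the sum of the 3 factors, so that their shares depend on each other. Of the 8 genes of the B-1 list, all but Spn had lower shares in the IgG-led cells. Il5ra was found in 8.51% against 29.0%, Ctla4 in 10.6% against 24.9%, Plscr1 in 25.5% against 45.9% and Cd9 in 39.4% against 58.3%. Of the age-associated or atypical list 6 genes were counted this way. Fas was found in 34.0% of IgG-led and 18.6% of IgM- or IgD-led members, Cd80 in 41.5% and 35.0%, Tbx21 in 18.1% and 8.95%, and Cxcr3 in 13.8% and 5.17%. Itgax (5.32% and 9.09%) and Zeb2 (60.6% and 63.5%) went the other way. Spn was found in 36.2% and 35.7%, and its level on the stricter gate was 92.1 CPM in IgG-led and 67.9 in IgM- or IgD-led members. Of the 94 IgG-led members, 27 came from p21Het_2.

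**Figure D5:**
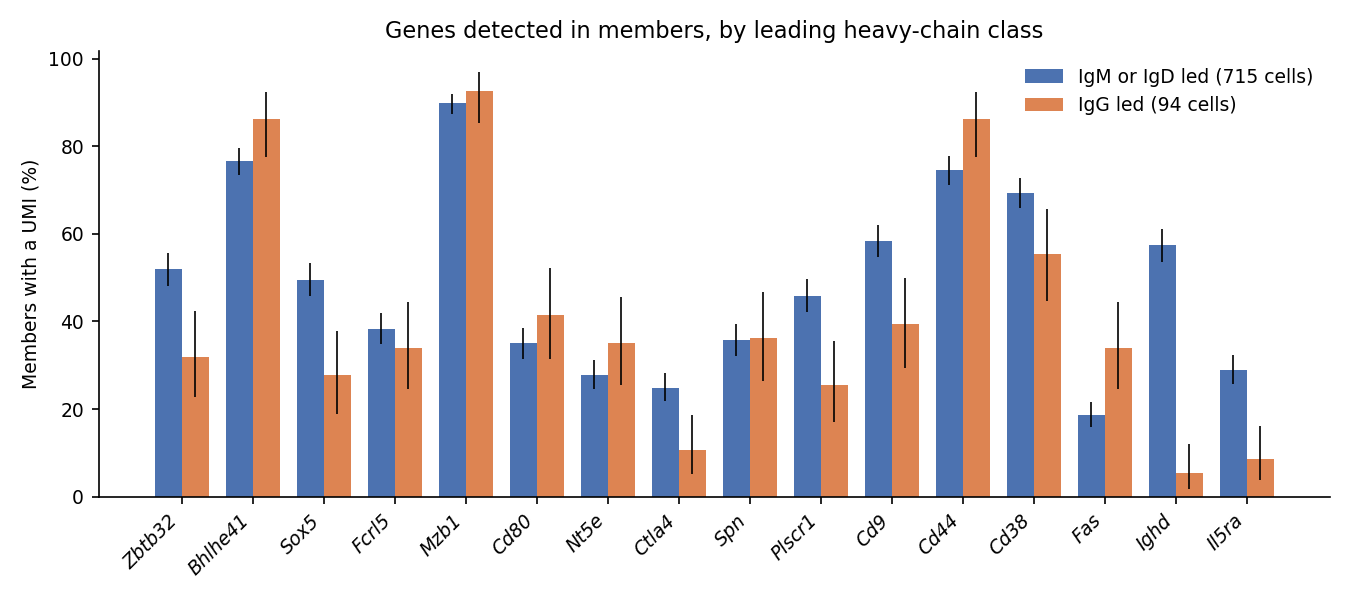
Bars give the share of members with a UMI of each gene (%), with exact 95% binomial intervals, for the 715 members led by IgM or IgD and the 94 led by IgG. Zbtb32, Sox5, Ctla4, Plscr1, Cd9 and Il5ra are found in a larger share of the first class, and Fas in a larger share of the second.

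Members are also set side by side by their pattern of factors, as a description that pools cells of 11 libraries and carries no test. The patterns are drawn from the same UMIs that the rule used. In the 129 members with all 3 factors, Ctla4 was found in 41.1% and Fcer2a in 1.55%, and Plac8 in 96.1%. In the 247 members with Bhlhe41 alone the shares were 12.6%, 20.6% and 68.4%. Chil3 stood at 268 CPM in the first and 5932 CPM in the second, and the median depth was 11738 and 8626 UMIs. The genes of other lineages summed to 3 or more UMIs in 26.4% of the first and 36.0% of the second. The part of macrophage UMIs in these differences and in the Bhlhe41 counts was not tested, nor was that of depth.

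Within members, no gene passed the test between genotypes at an adjusted p under 0.05. Of 8448 genes tested with edgeR, 0 (0%) were called for p21mTert against p21Het, 0 (0%) for p21mTert against p21mTertCD and 0 (0%) for p21mTertCD against p21Het. At an unadjusted p under 0.05 the counts were 207 (2.45%), 487 (5.76%) and 336 (3.98%), and DESeq2 called 1 gene in each contrast. The median log2 fold changes of the marker lists lay between -0.71 and 0.86, both for the germinal centre list of 4 tested genes.

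Cdkn1a (chromosome 17, 29090976 to 29100727, plus strand), whose locus carries the alleles of this study, stood at 57.8 CPM in the members of WT_1. It stood at 114, 48.1 and 24.6 in p21Het, at 84.2, 76.5, 29.7, 54.9 and 80.6 in p21mTert, and at 6.46 and 57.4 in p21mTertCD. The groups overlapped throughout. The log2 fold change was 0.12 ± 0.46 for p21mTert against p21Het, 0.65 ± 0.59 against p21mTertCD (0.078 without p21mTertCD_1 and 3.11 without p21mTertCD_2) and -0.53 ± 0.64 for p21mTertCD against p21Het. Against other B cells Cdkn1a differed by 0.62 (edgeR adjusted p = 0.074), at 57.6 ± 30.6 and 39.3 ± 13.5 CPM, and by -0.55 on the stricter gate (adjusted p = 0.084), at 9.43 and 15.3 CPM. It passed as higher in the fits without p21mTertCD_1 and without p21Het_3 (0.76 each, edgeR adjusted p = 0.0097 and 0.0258). The sign turned when barcodes with other-lineage UMIs were left out.

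The 2 genes that DESeq2 called were named after their values were seen. Gm42031, a predicted gene, stood at 28.4 CPM in the members of WT_1 and at 7.69, 29.9 and 14.2 in p21Het. It stood at 160, 106, 79.1, 114 and 59.8 in p21mTert and at 9.68 and 22.9 in p21mTertCD. All p21mTert libraries lay above all others. The log2 fold change against p21Het was 2.39 ± 0.43 (edgeR adjusted p = 0.99952; DESeq2 adjusted p = 0.00054), and the stricter gate gave 2.41 (edgeR adjusted p = 0.0101). Other B cells showed the same order, with means of 94.5 CPM in p21mTert and 18.4 in p21Het, so that this gene was not particular to members. Lmna, which encodes lamin A/C, stood at 207 CPM in WT_1, at 292, 252 and 190 in p21Het, at 222, 241, 245, 212 and 276 in p21mTert, and at 61.3 and 111 in p21mTertCD. Both p21mTertCD libraries lay below all others, on 19 and 97 UMIs. p21mTert minus p21mTertCD was 1.31 ± 0.24 on the log2 scale (edgeR adjusted p = 0.813; DESeq2 adjusted p = 0.0085). In other B cells Lmna stood at 59.9 CPM in p21mTert and 67.5 in p21mTertCD.

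Promoters of the genes that differed were searched for the E-box CACGTG, to which BHLHE41 binds, and for the SOX core AACAAT. The search covered both strands of the 250 bases before each start in the RefSeq promoter table (GRCm38.p6). CACGTG was found in 117 of 1317 promoters of higher genes (8.88%), in 110 of 1297 of lower genes (8.48%), in 9.13% of all tested genes and in 6.05% of all promoters in the table. AACAAT was found in 5.62%, 5.24%, 5.07% and 9.65%. The shares in higher and lower genes were close to those of all tested genes for both motifs.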

How the data were processed

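Dissociated lungs were profiled with the 10x Genomics 3′ assay in 11 libraries. Per the labels' protocols, the authors mapped reads to mm10 and counted UMIs with Cell Ranger, and the deposited matrices hold raw UMI counts per gene and barcode. The sources differ on its version, which is therefore not stated. The deposited counts carry no cell filter beyond about 500 UMIs, so the thresholds of the labels' protocols (1000 to 30000 UMIs, at most 14% mitochondrial UMIs) were applied here. The members, gene lists and naming rule were chosen with earlier results of these data known.

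Counts were summed per library over members and over other B cells, for libraries with at least 20 members, and tested with edgeR 4.0.16 (filterByExpr, TMM, quasi-likelihood test, library as a block) or, between genotypes, with group as the only term and WT left out. DESeq2 1.42.0 was an alternative. Shares were compared over libraries with exact permutation tests, isotype shares with exact sign flips within libraries. The rule's genes, Fcrl5 and Mzb1 stayed out of the tests of members against other B cells. They were not left out of the tests between genotypes. Named genes are up to 15 per direction with the largest log2 fold change among called genes, at least 20 CPM in the higher class and the same direction in every library, without immunoglobulin variable segments and predicted genes. Genes of the lists, Cdkn1a, Tert and heavy-chain genes could be named in addition, and some of the list genes are not reported here. Thinning drew 1000 UMIs per cell. Doublets were scored with Scrublet in scanpy 1.11.5, whose own threshold marked under 0.5% in 4 libraries, so the highest scores were marked instead at 0.8% per 1000 cells. They were kept in the main analysis and left out in an alternative. The fits were checked on simulated data. Of genes given a 2-fold change, 88.5% were called for members against other B cells and 15.5% for p21mTert minus p21Het. The simulation gave all genes the same fixed spread and changed only genes of at least 20 CPM. These rates describe the simulated counts and not the spread of the real libraries. A log2 fold change compares CPM after TMM scaling. Depth was 42038434 to 85988955 UMIs per library, and intervals cover counting error only.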

Additional observations from a re-analysis of the deposited data

Results flagged for a closer look

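Of 26 measures examined in the 5 p21mTert libraries, 4 had 1 library far from the rest (a gap over 0.71 of the range, which chance gives in about 1 of 20 groups). The share of members led by IgA was 0% in p21mTert_5 and 4.00% to 5.21% in the other 4, where each value rests on 3 to 5 cells. Ighg2b stood at 6740 CPM in the members of p21mTert_3 and at 29.9 to 173 in the others, and 50.1% of its 6819 UMIs there came from 1 cell. Ighg2c stood at 81.0 CPM in p21mTert_1 and at 5.20 to 22.8 in the others. Cd80 stood at 108 CPM in p21mTert_1 and at 36.4 to 51.5 in the others, and without that library its log2 fold change against other B cells stayed within 3.04 to 3.23, the range over all single libraries left out.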

How the results depend on the processing

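The differences in the share of members among B cells depended on single libraries and on the denominator. Leaving out 1 library at a time gave -4.08 to 0.411 points for p21mTert minus p21Het, -10.2 to -0.862 for p21mTert minus p21mTertCD, and -1.04 to 8.30 for p21mTertCD minus p21Het. Over all filtered cells the last 2 differences turned to 0.361 and -0.384 points. p21mTert minus p21mTertCD reached an exact permutation p of 0.0476 with 3 or more factor UMIs (-3.45 points) and without cells of other lineages (-7.01), but not on the stricter gate (-8.21, p = 0.190). The lower IgM or IgD share missed 0.05 with 5 or more UMIs of the leading class (-4.96 points), after thinning (-3.21) and in the later deposit (-7.31), and ranged from -10.8 to -7.27 with 1 library left out. The IgA difference missed it without cells of other lineages (1.97) and in the later deposit (1.64), and ranged from 1.70 to 2.46. The IgG difference kept its call in every alternative run, but was 3.57 points after thinning, and ranged from 7.83 to 9.37 points with 1 library left out.

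Lower genes numbered 2710 without a filter on low counts. After thinning, 1608 genes could be tested, and 285 were higher and 288 lower. Leaving out 1 library gave 1469 to 2105 higher and 1432 to 1939 lower genes. Of 95 named genes called, 50 could be tested in all 22 alternatives, and 42 of these kept direction and call. Of the other 45, 41 kept both wherever they could be tested. The call was lost somewhere for 12 (Btk, Cd86, Chil3, Cxcr5, Egr1, H2-Aa, Irf4, Itgam, Ly6d, Mrc1, Top2a and Xbp1), and 1, Chil3, turned in sign (-0.85 both without cells of other lineages and on the stricter gate). Both of these alternatives leave out cells by UMIs of a list that holds Chil3, so they cannot decide its direction. Among genes not called, Klf2 turned to -0.017 without the filter and Ighg2c to -0.18 with 3 or more factor UMIs and -1.32 without cells of other lineages. Cdkn1a against other B cells turned to -0.66 without cells of other lineages (edgeR adjusted p = 0.030) and -0.55 on the stricter gate, and passed as higher with 3 or more factor UMIs (0.76, edgeR adjusted p = 0.0148). The causes were not tested.

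Between genotypes, the 3 contrasts in the order of the report gave 1, 1 and 1 called genes with DESeq2, 2, 3 and 1 without the filter, 1, 4 and 3 without cells of other lineages, and 1, 2 and 1 on the stricter gate. Apart from Lmna, called by DESeq2, the counted calls in contrasts with p21mTertCD were immunoglobulin variable segments (Ighv1-47, Ighv1-55 and Igkv3-9). Their UMIs in p21mTertCD_2 came from 1 to 3 cells each. Leaving out 1 library gave 0 calls for the first contrast. For the contrasts with p21mTertCD it also gave 0 calls wherever both p21mTertCD libraries stayed in the fit. Cdkn1a within members, p21mTert minus p21Het, turned to -0.53 without cells of other lineages, -0.43 on the stricter gate and ranged from -0.23 (without p21Het_3) to 0.67 with 1 library left out. For p21mTertCD minus p21Het it turned to 0.097 without marked doublets, and ranged from -2.99 to 0.044 (without p21mTertCD_1), with 0.040 without p21Het_1.

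With the replicate number as a block, the share differences were -2.02, -6.25 and 3.50 points (exact permutation p = 0.75, 0.5 and 1) and 0 genes were called in each contrast. Deviations of same-numbered libraries correlated from -0.09 to 0.34, so the numbers were not taken to pair libraries. The genotype comparisons rest on 5, 3 and 2 libraries with 23 to 144 members each.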
